A study of Mus musculus with 2 samples.

Results

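Of the 21896 genes in the deposited values, 75 are voltage-gated sodium, calcium or potassium channel genes. They were picked by a rule on gene symbols, in a choice made with earlier results of these data known. They comprise 14 sodium channel genes (Scn), 26 calcium channel genes (Cacna1, Cacna2d, Cacnb and Cacng) and 35 potassium channel genes (Kcna to Kcnd, Kcnh, Kcnq, Kcns and Kcnv). RNA of the ventricular and subventricular zones (VZ-SVZ) dissected from the cortex of C57/BL6 mouse embryos at E13.5 (embryonic day) was read in a pair of libraries, 1 from the control genotype Rcor2fl/fl and 1 from Rcor2cko. Both embryos or sets of embryos came from crosses of Rcor2fl/+NesCre mice and carried both floxed Rcor2 alleles. Rcor2 is a co-repressor that partners the histone demethylase LSD1. In Rcor2cko, Cre driven by Nestin, which is active in neural progenitors and so also in the cells they give rise to, deletes the floxed first exons of Rcor2, so cells outside the neural lineage keep the gene. Whether the Rcor2fl/fl embryos carried NesCre, and whether a library is 1 embryo or several, is not given in the sources used here.

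Voltage-gated channels open when the membrane is depolarised. Each sodium or calcium channel has 1 large pore-forming subunit, named alpha or alpha1, and smaller partners (beta, alpha2delta and gamma) that set how much of it reaches the membrane and how it gates. Potassium channels assemble from separate pore subunits, which may mix within a family. Sodium channels carry the upstroke of the action potential, potassium channels end it and set how easily a cell fires, and calcium channels couple depolarisation to calcium entry. In the embryonic cortex these genes are expressed mostly as neurons are born and mature, while progenitors have few of these currents. The comparison asked which of them differed between the cortex that lacks Rcor2 and its control.

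Levels are given in FPKM, fragments per kilobase of transcript and of mapped fragments scaled to a fixed depth, so levels of different genes can be set side by side. Differences are log2 ratios of Rcor2cko to Rcor2fl/fl with 0.1 FPKM added to both levels, so those of low genes are understated. A gene was compared where either library had it at 1 FPKM or more, and was called higher or lower past 1.5-fold. With 1 library per genotype there is no replicate check and no test. Every difference is one between these 2 libraries, in which genotype cannot be told apart from anything else that differs between them. For genes with 1 transcript model, whole fragments were recovered from the FPKM steps, and such genes carry a 95% exact interval, computed from the fragments with no pseudocount and covering counting error only. The libraries correspond to scaling totals of 18841674 fragments (Rcor2fl/fl) and 25480461 fragments (Rcor2cko), so 3 fragments on a transcript of 5000 nt stand for 0.0331 and 0.0245 FPKM, respectively.

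Rcor2 itself was at 90.6 FPKM in Rcor2fl/fl and 55.7 FPKM in Rcor2cko (log2 ratio -0.70, interval -0.79 to -0.63), counted over the whole transcript and not over the deleted exons alone. Xist, which is expressed from the inactive X chromosome, was at 177 and 0.109 FPKM, and the Y-linked gene Ddx3y at 0.0239 and 8.10 FPKM, so that sex and genotype cannot be told apart in this pair. Cell type markers also moved between the libraries. Of 14 markers of ventral GABAergic neurons, 14 were higher and 11 were past 1.5-fold, with a summed level of 61.5 and 131 FPKM, and 1 of them was at 0 in the Rcor2fl/fl library. All 7 microglial markers were higher (16.2 and 24.3 FPKM summed, 3 past 1.5-fold, none at 0). The 7 choroid plexus markers summed to 1.04 and 62.9 FPKM, with 2 of them at 0 in the Rcor2fl/fl library. Most of that Rcor2cko sum was Ttr, at 0 and 57.8 FPKM. The 17 pan-neuronal and cortical neuron markers, in contrast, summed to 2039 and 1976 FPKM, with 8 of 17 higher and none past 1.5-fold. The 11 radial glia markers summed to 1042 and 1141 FPKM, with 4 of 11 higher and 1 lower past 1.5-fold. The higher radial glia sum came from Fabp7, at 372 and 539 FPKM. All 10 endothelial and pericyte markers were higher without passing 1.5-fold (44.8 and 52.0 FPKM summed), and the 8 erythroid markers summed to 242 and 178 FPKM. The part of these shifts in the channel differences was not tested, and fewer cells of a type and less RNA per cell cannot be told apart.

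Among the 75 channel genes, 48 reached 1 FPKM in at least 1 library and 27 did not. The calcium channel genes had the highest summed level (263 FPKM in Rcor2fl/fl and 259.6 FPKM in Rcor2cko), ahead of the potassium channel genes (96.5 and 97.3 FPKM) and the sodium channel genes (37.7 and 46.7 FPKM). Of the 48, 6 were more than 1.5-fold higher in Rcor2cko (12.5%), compared with 3.79% of the 11777 genes compared. Among these were the sodium channel Scn3a, the calcium channel genes Cacna1g and Cacnb2, and the potassium channel genes Kcnh4 and Kcnh8. Another 2 were more than 1.5-fold lower (4.17%, against 1.76% of all genes compared), both of them accessory calcium channel subunits, Cacna2d3 and Cacng5. The median log2 ratio of the 48 was 0.07, beside -0.03 over all genes compared, and 27 of the 48 (56.25%) were higher, beside 42.4% of all genes compared. Cacnb2, Kcnh4 and Kcnh8 passed the 1 FPKM limit through the Rcor2cko library alone and Cacng5 through the Rcor2fl/fl library alone, so for these 4 genes the limit itself favoured a difference. With at least 1 FPKM asked of both libraries, 3 genes were called higher, Cacna1g and Scn3a among them, and Cacna2d3 lower. With a pseudocount of 1 FPKM, Kcnh4 was called higher and Cacna2d3 lower.

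**Figure D1:**
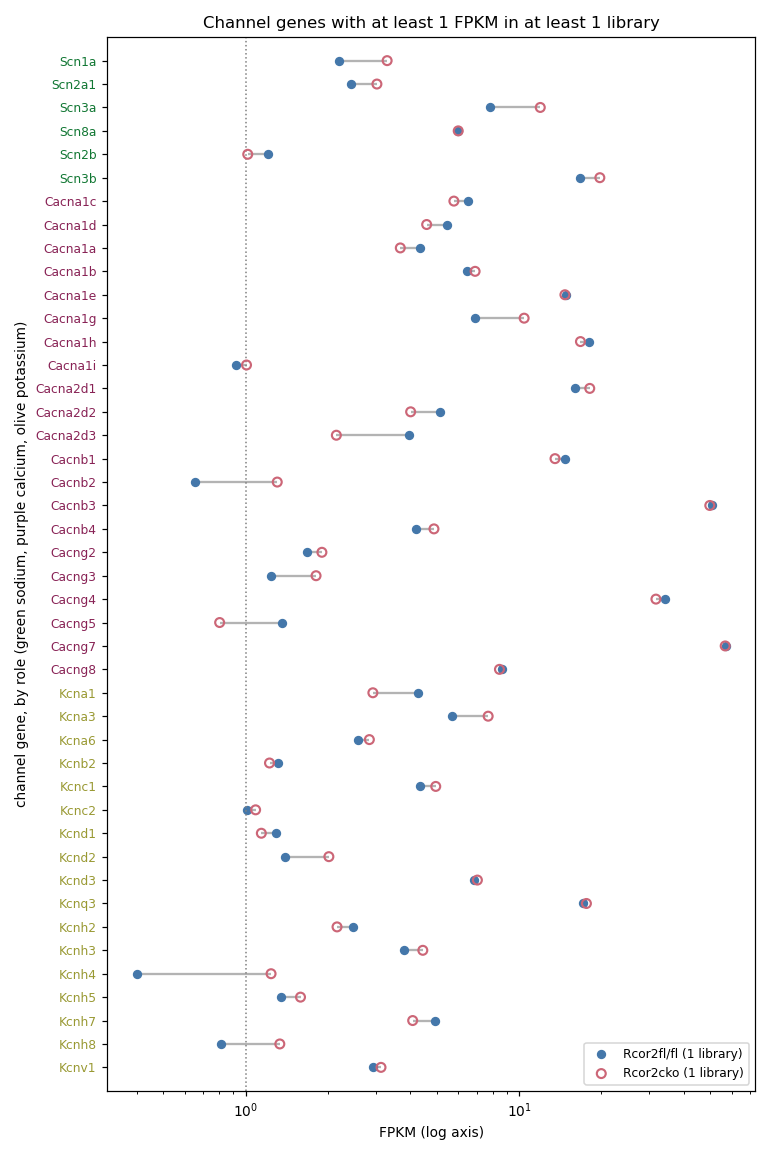
FPKM on a log axis for 44 of the 48 channel genes that reached 1 FPKM in either library, by role, with a filled circle for the Rcor2fl/fl library and an open circle for the Rcor2cko library; the dotted line marks 1 FPKM. Most pairs of circles lie close together, and the longest gaps are those of Kcnh4, Cacnb2, Kcnh8 and Scn3a to the right and of Cacna2d3 and Cacng5 to the left.

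Channel genes were less often close to equal in the 2 libraries than all genes compared. The log2 ratio lay between -0.15 and 0.15 for 33.4% and 24.5% of all genes in the bins on either side of 0, and for 16.7% of the channel genes in each of the same bins. The SD of the log2 ratio was 0.41 over the 48 channel genes and 0.45 over all genes compared, the latter including a few genes with very large ratios. Channel genes are mostly of low level, and ratios spread more at low level. Of the 15 channel genes with a mean level of 2 to 5 FPKM, 2 were past 1.5-fold (13.3%, beside 8.56% of 2032 genes at that level). Of the 15 at 5 to 20 FPKM, 2 were past 1.5-fold as well (13.3%, beside 2.50% of 5243 genes), and of the 11 at 1 to 2 FPKM 2 were (18.2%, beside 19.7% of 992 genes). Of the 4 channel genes at 20 FPKM or more, 0 were past 1.5-fold (beside 0.880% of 3296 genes) and 0 were higher. These levels cover the 45 compared channel genes with a mean of at least 1 FPKM. They leave out Kcnh4 and Cacnb2, both called higher, whose means are under 1 FPKM.

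**Figure D2:**
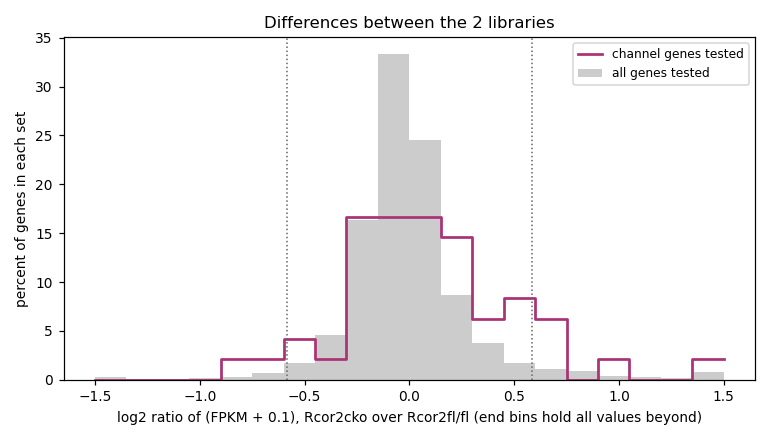
Percent of genes (vertical axis) in each bin of the log2 ratio (horizontal axis, Rcor2cko to Rcor2fl/fl with 0.1 FPKM added), for the 48 channel genes (line) and for the 11777 genes compared (grey bars); dotted lines mark 1.5-fold and the end bins hold all values beyond. The line is lower than the bars around 0 and higher than them between 0.45 and 0.75.

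Of the sodium channel alpha subunits at 1 FPKM or more, Scn3a, Scn1a and Scn2a1 were higher in Rcor2cko and Scn8a was at nearly the same level. Summed over the 10 alpha genes the level was 18.9 FPKM in Rcor2fl/fl and 25.4 FPKM in Rcor2cko. Scn3a, which encodes Nav1.3, the main alpha subunit of the embryonic brain, was at 7.80 FPKM in Rcor2fl/fl and 11.96 FPKM in Rcor2cko (1376 and 2851 fragments, log2 ratio 0.61, interval 0.52 to 0.71). It made up 41.3% of the summed alpha level in the first library and 47.1% in the second. Scn1a, which encodes Nav1.1, the alpha subunit that fast-spiking interneurons depend on, was at 2.20 and 3.29 FPKM (335 and 678 fragments, log2 ratio 0.56, interval 0.39 to 0.77), just short of 1.5-fold. Scn2a1, which encodes Nav1.2 of young axons, was at 2.43 and 3.02 FPKM (log2 ratio 0.30, interval 0.13 to 0.50). Scn8a, which encodes Nav1.6 of mature axon initial segments, was at 5.96 and 5.99 FPKM (log2 ratio 0.01). Of these 4 alpha genes, 3 thus differed by more than counting error. The control value of Scn8a sums 2 transcript rows. The other 6 alpha genes stayed under 1 FPKM in both libraries and are given further on.

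Beta subunits modulate alpha subunits and act as adhesion molecules. Scn3b, the beta subunit of embryonic neurons, was the highest sodium channel gene of all, with 16.7 FPKM in Rcor2fl/fl and 19.7 FPKM in Rcor2cko (log2 ratio 0.24), and held 88.6% and 92.4% of the summed beta level. Scn2b was at 1.203 and 1.02 FPKM (log2 ratio -0.22), and its interval of -0.65 to 0.16 includes no difference. Scn4b, the beta subunit of adult striatal and Purkinje neurons, rested on 2 and 4 fragments.

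The genes of Scn3a, Scn2a1, Scn1a, Scn9a and Scn7a lie in 1 cluster on chromosome 2 (mm9, 65295175 to 66622967), which arose by tandem duplication and holds 9 genes of the deposited values. Scn3a (65295175 to 65405549, minus strand) and Scn2a1 (65508502 to 65605504, plus strand) stand head to head, and the loci of Scn1a (66108839 to 66278894) and Scn9a (66278937 to 66473009), both on the minus strand, are 42 nt apart as the deposited values give them. The latter locus is shared with Gm13629, so it may reach beyond Scn9a itself. Scn9a, which encodes Nav1.7 of sensory and sympathetic neurons, was at 0.121 and 0.559 FPKM (22 and 137 fragments, interval 1.55 to 2.92). Scn7a was at 0 in both libraries, as was Gm13629. Of the genes between them, Csrnp3, a transcription factor gene, was at 7.42 and 9.66 FPKM (log2 ratio 0.38), Ttc21b, a cilium gene, at 5.56 and 5.79 FPKM (0.06, interval -0.12 to 0.23), and Galnt3 at 0.0912 and 0.0225 FPKM from 6 and 2 fragments. Outside the cluster Slc38a11 was at 0.0752 and 0.140 FPKM (2 and 5 fragments) and Cobll1 at 1.39 and 1.19 FPKM (log2 ratio -0.21). All 4 sodium channel genes with fragments in this stretch were higher in Rcor2cko with intervals above 0. Of the genes between Scn2a1 and Scn1a, Ttc21b had an interval that includes 0. Csrnp3, which has no interval, had a larger log2 ratio (0.38) than Scn2a1 (0.30), so higher values were not confined to the channel genes.

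**Figure D3:**
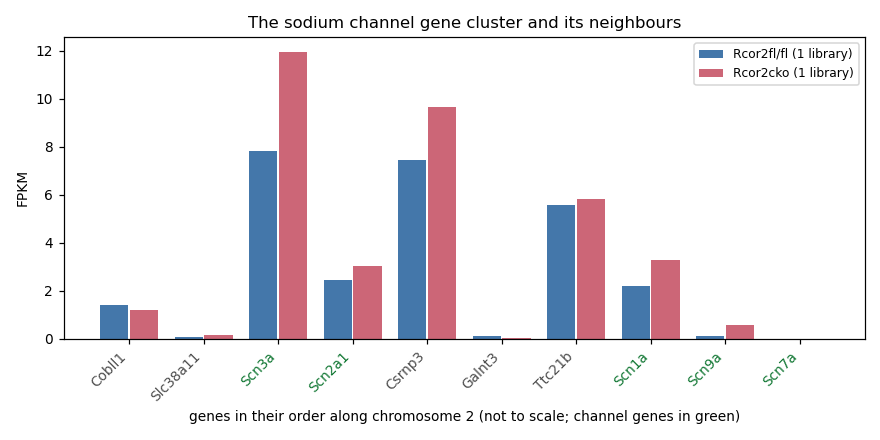
Levels in FPKM (vertical axis) in the Rcor2fl/fl library (blue bars) and the Rcor2cko library (red bars) for the genes of the sodium channel cluster in their order along chromosome 2 with a neighbour pair on the left (not to scale, channel genes in green). Scn3a goes from 7.80 to 11.96 FPKM, Scn1a from 2.20 to 3.29 FPKM and Scn9a from 0.121 to 0.559 FPKM. Of the other genes, Csrnp3 goes from 7.42 to 9.66 FPKM, while Ttc21b stays at 5.56 and 5.79 FPKM.

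Pore-forming calcium channel subunits showed 1 difference past 1.5-fold among 8 genes compared. Cacna1g encodes Cav3.1, a T-type channel that opens at small depolarisations and supports burst firing, for instance in the thalamus. It was at 6.89 FPKM in Rcor2fl/fl and 10.4 FPKM in Rcor2cko, a log2 ratio of 0.59 that is just past 1.5-fold (chromosome 11, mm9 94269705 to 94335512, minus strand). Its control value is the sum of 4 transcript rows, so no fragments were recovered. The 95% control interval, 5.85 to 7.93 FPKM, was combined here from the deposited intervals of those rows as if they were independent. It does not overlap the deposited Rcor2cko interval, 8.93 to 11.9 FPKM. The other T-type genes moved little. Cacna1h (Cav3.2) was at 17.9 and 16.8 FPKM (log2 ratio -0.10) and Cacna1i (Cav3.3) at 0.918 and 1.01 FPKM (0.12, interval -0.16 to 0.42), so the share of Cacna1h in the summed T-type level went from 69.7% to 59.4%.

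The L-type genes, whose channels link calcium entry to gene expression in young neurons, were both slightly lower. Cacna1c (Cav1.2) was at 6.51 and 5.77 FPKM (log2 ratio -0.17) and Cacna1d (Cav1.3) at 5.45 and 4.59 FPKM (-0.24). Both control values are sums of transcript rows, and with the highest row alone, which lowers the control value only, the ratio of Cacna1c turned to 0.60 and that of Cacna1d to 0.48. Of the channels that trigger transmitter release at nerve terminals, the N-type gene Cacna1b was at 6.47 and 6.90 FPKM (0.09) and the P/Q-type gene Cacna1a at 4.34 and 3.68 FPKM (632 and 724 fragments, -0.23, interval -0.40 to -0.08). Cacna1e, the R-type gene, was at 14.9 and 14.7 FPKM. With 3508 and 4685 fragments its interval of -0.08 to 0.05 is the narrowest among the channel genes, and the ratio of Cacna1a lies outside it. The 2 L-type genes of muscle and retina, Cacna1s and Cacna1f, stayed at or under 0.0656 FPKM in both libraries.

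The accessory calcium channel subunits held the highest levels of all channel genes, and the 2 genes that were lower past 1.5-fold. Alpha2delta subunits bring calcium channels to the membrane and are the targets of gabapentin-type drugs. Cacna2d3 was at 3.96 FPKM in Rcor2fl/fl and 2.15 FPKM in Rcor2cko (261 and 191 fragments, log2 ratio -0.85, interval -1.16 to -0.61), although the Rcor2cko library was the deeper one (chromosome 14, mm9 29718129 to 30535050, minus strand). Cacna2d2 was at 5.14 and 4.01 FPKM (-0.35) and Cacna2d1 at 16.1 and 18.1 FPKM (0.17), the latter with a status other than OK in the Rcor2cko values. The ratio of Cacna2d2 turned to 0.87 with the highest of its 5 control rows alone. Cacna2d1 thus went from 63.8% to 74.7% of the summed alpha2delta level, which itself was 25.2 and 24.3 FPKM. Cacna2d4, a retinal form, had 3 and 0 fragments. The locus given for Cacna2d3 is shared with Lrtm1, and whether strand was used in the counting is not given in the sources used here.

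Beta subunits bind alpha1 subunits inside the cell and protect them from degradation. Cacnb2, the main beta subunit of the heart and also a neuronal one, was at 0.650 FPKM in Rcor2fl/fl and 1.304 FPKM in Rcor2cko (34 and 92 fragments, log2 ratio 0.90, interval 0.42 to 1.61; chromosome 2, mm9 14525933 to 14908560, plus strand). The locus given for it is shared with Gm13315. It was the lowest of the 4 beta genes in both libraries. Cacnb3 was at 50.8 and 49.9 FPKM (-0.03), Cacnb1 at 14.8 and 13.54 FPKM (-0.12) and Cacnb4 at 4.19 and 4.88 FPKM (0.22), so the summed beta level was 70.4 and 69.6 FPKM.

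The Cacng genes encode the skeletal muscle gamma subunit and its relatives, most of which are TARPs, partners of AMPA-type glutamate receptors. Cacng7 had the highest level of all channel genes, at 57.0 FPKM in Rcor2fl/fl and 56.8 FPKM in Rcor2cko (-0.01), followed among the TARP genes by Cacng4 at 34.1 and 31.7 FPKM (-0.10) and Cacng8 at 8.68 and 8.48 FPKM (-0.03). Cacng5 was at 1.36 and 0.803 FPKM, a log2 ratio of -0.69 and the other one past 1.5-fold, from 2 transcript rows whose fragments were not recovered. Cacng2 (stargazin) was at 1.68 and 1.90 FPKM (0.17, interval -0.23 to 0.59) and Cacng3 at 1.24 and 1.81 FPKM (0.51, from 31 and 61 fragments, interval -0.11 to 1.21). Cacng4 and Cacng5 are neighbours on chromosome 11 and Cacng7 and Cacng8 on chromosome 7, and within the first pair the ratios differed (-0.10 and -0.69). Cacng1, the muscle gamma subunit, had 3 and 8 fragments, and Cacng6 was listed at 0 in Rcor2fl/fl and at 0.0674 FPKM in Rcor2cko.

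**Figure D4:**
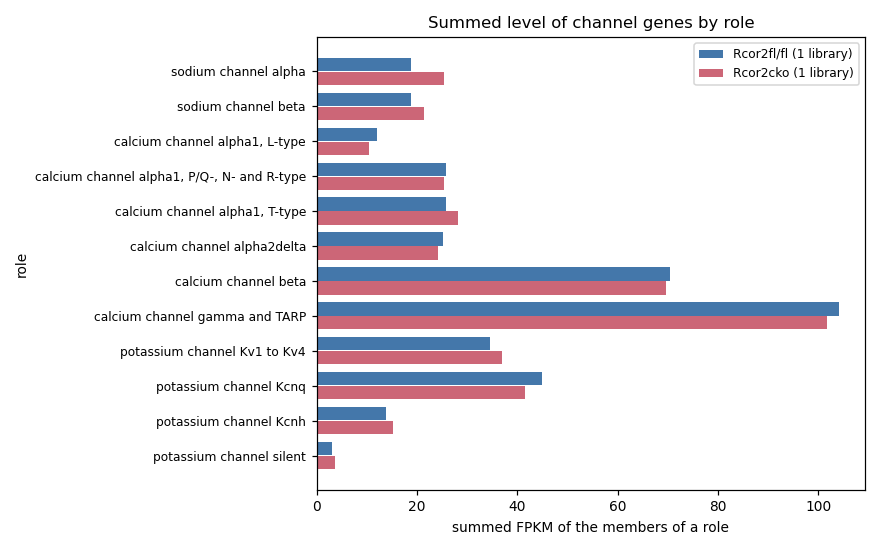
Summed FPKM (horizontal axis) over the channel genes of each role in the Rcor2fl/fl library (blue bars) and the Rcor2cko library (red bars). The sodium channel alpha bar goes from 18.9 to 25.4 FPKM, while the calcium channel beta and the gamma and TARP bars, the longest ones, stay at 70.4 and 69.6 FPKM and at 104 and 102 FPKM.

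Delayed-rectifier and A-type potassium channels of the Kv1 to Kv4 families (Kcna, Kcnb, Kcnc and Kcnd) differed in both directions. Kcna3 (Kv1.3) was at 5.68 FPKM in Rcor2fl/fl and 7.71 FPKM in Rcor2cko (log2 ratio 0.43, interval 0.17 to 0.70) and Kcnd2, which encodes the A-type channel Kv4.2 of dendrites, at 1.39 and 2.01 FPKM (0.50, interval 0.20 to 0.87). Kcna1, which encodes Kv1.1 of axons, was at 4.28 and 2.92 FPKM (707 and 652 fragments, -0.54, interval -0.71 to -0.40), lower by more than counting error without reaching 1.5-fold.

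Another 6 genes of these families had log2 ratios from -0.17 to 0.19, and where they had intervals these include no difference. Kcnd3 (Kv4.3), the highest among them, was at 6.86 and 7.04 FPKM (0.04) and Kcnc1 (Kv3.1) at 4.32 and 4.96 FPKM (0.19). Kcna6 was at 2.58 and 2.83 FPKM, Kcnb2 at 1.31 and 1.22 FPKM, Kcnd1 at 1.295 and 1.14 FPKM and Kcnc2 at 1.01 and 1.09 FPKM. Most Kcna genes lie in 2 clusters, on chromosomes 6 and 3, in which neighbours had different ratios. On chromosome 6 Kcna1 had an interval below 0 and its neighbour Kcna6 one from -0.09 to 0.36. On chromosome 3 Kcna3 had an interval above 0, Kcna2 was at 0.651 and 0.675 FPKM (40 and 56 fragments, interval -0.56 to 0.67) and Kcna10 was at 0, and AI504432, a non-coding locus between Kcna3 and Kcna2, was at 8.22 and 13.3 FPKM (log2 ratio 0.69, interval 0.57 to 0.81).

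The Kcnq genes encode the channels of the M-current, which restrains repetitive firing and is shut by muscarinic receptors. Summed over the 5 Kcnq genes the level was 44.9 FPKM in Rcor2fl/fl and 41.5 FPKM in Rcor2cko, the highest sum among the potassium channel groups. Kcnq3, which encodes a subunit of the channel that carries this current in neurons, was at 17.1 and 17.6 FPKM (866 and 1203 fragments, log2 ratio 0.04, interval -0.09 to 0.17). Kcnq5 was at 0.797 and 0.706 FPKM.

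The Kcnh genes encode the ether-a-go-go (EAG), EAG-like (ELK) and EAG-related (ERG) channels. Kcnh4, an ELK channel of the striatum and other forebrain regions, had the largest ratio among the 48 genes. It was at 0.399 FPKM in Rcor2fl/fl and 1.24 FPKM in Rcor2cko (27 and 113 fragments, log2 ratio 1.42, interval 1.01 to 2.29; chromosome 11, mm9 100601692 to 100621092, minus strand). Kcnh8, another ELK channel, was at 0.814 and 1.33 FPKM (29 and 64 fragments, 0.65, interval 0.05 to 1.39; chromosome 17, mm9 52742088 to 53044544, plus strand). The last ELK gene, Kcnh3, had the highest level of these 3, 3.79 and 4.44 FPKM (0.22), with an interval of -0.01 to 0.47. All 3 ELK genes were thus higher in Rcor2cko, and the interval of Kcnh3 reaches 0.

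Among the EAG and ERG genes no ratio passed 1.5-fold in either direction with at least 1 FPKM. Kcnh7, an ERG channel and the highest Kcnh gene in the Rcor2fl/fl library, was at 4.93 and 4.08 FPKM (335 and 374 fragments, -0.27, interval -0.49 to -0.06). Kcnh2, the ERG channel known from the cardiac long QT syndrome, was at 2.48 and 2.16 FPKM (-0.19, interval -0.49 to 0.09) and Kcnh5, an EAG channel, at 1.35 and 1.59 FPKM (0.22, interval -0.14 to 0.61). Kcnh7 and Kcnh3 changed places in the order of the family, from Kcnh7 first in Rcor2fl/fl to Kcnh3 first in Rcor2cko, but the deposited 95% FPKM intervals of the pair overlap in both libraries (3.91 to 5.96 and 2.55 to 5.03 FPKM in the first, 3.17 to 4.99 and 3.09 to 5.80 FPKM in the second). Of the electrically silent Kcns and Kcnv subunits, which form no channel alone and modify Kv2 channels, Kcnv1 alone reached 1 FPKM, with 2.91 and 3.13 FPKM (0.10, interval -0.14 to 0.35).

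Fragments could be recovered for 29 of the 48 genes. The 95% exact interval lay above 0 for 10 of them (34.5%, Cacnb2, Kcna3, Kcnd2, Kcnh4, Kcnh8, Scn1a, Scn2a1 and Scn3a among them), compared with 13.7% of 8460 genes, and below 0 for 5 (17.2%, Cacna1a, Cacna2d3, Kcna1 and Kcnh7 among them), compared with 23.9% of the same genes. Among all genes, too, many intervals lay off 0, more of them below it than above. Of the 6 genes called higher, 5 had a recovered interval and all 5 intervals lay above 0, as that of Cacna2d3 lay below 0. Calls and intervals rest on the same fragments, so this is no independent check. The other 19 genes could not be given an interval, 16 because the control values list several transcripts and 3 (Cacng4, Cacng7 and Cacng8) because their models are under 1000 nt.

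**Figure D5:**
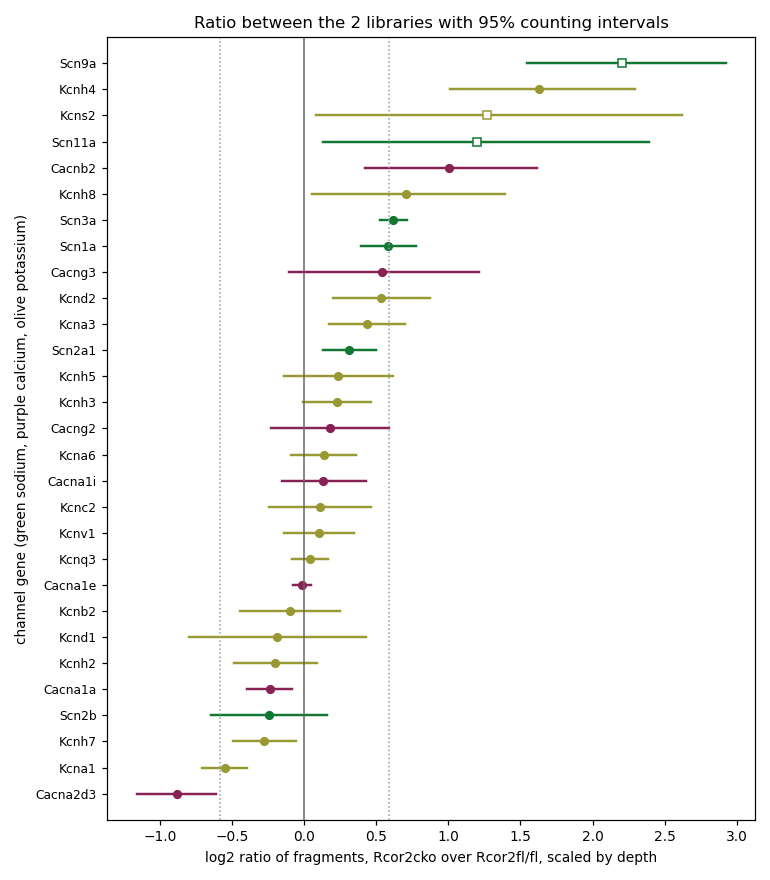
Log2 ratio of fragments scaled by depth, Rcor2cko over Rcor2fl/fl (horizontal axis), with 95% exact counting intervals (lines) for 26 of the 29 compared channel genes with recovered fragments (circles) and for Scn9a, Scn11a and Kcns2, which were under 1 FPKM in both libraries (squares); dotted lines mark 1.5-fold. Intervals of 8 circles lie above 0 and those of 4 circles below 0.

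Of the 27 channel genes under 1 FPKM in both libraries, 20 had a higher value in Rcor2cko and 4 a lower one. Kcna10, Kcna7 and Scn7a were at 0 in both libraries, Cacng6, Kcnv2 and Scn10a were at 0 only in Rcor2fl/fl, and Cacna2d4 was at 0 only in Rcor2cko. Among the 19 with at least 1 recovered fragment, 16 were higher (84.2%), beside 58.9% of the 3633 genes of that kind. The fragments of the 19 summed to 203 and 438, not scaled for the greater depth of the Rcor2cko library. Of these 19, 4 were more than 1.5-fold higher with an interval above 0 (21.1%, against 6.74% of the 3633 genes), and 0 were more than 1.5-fold lower with an interval below 0 (against 2.81%).

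Of these 4, 3 encode sodium channels of peripheral sensory neurons. Scn9a is described above with its cluster, and its fragments made up 22 of the 203 and 137 of the 438. Scn11a, which encodes Nav1.9, was at 0.0941 and 0.216 FPKM from 10 and 31 fragments (interval 0.13 to 2.39). Scn10a, which encodes Nav1.8, had 0 fragments in Rcor2fl/fl and 9 in Rcor2cko, with an interval that starts at 0.55 and has no upper end. With the first set to its floor of 3 fragments the level was 2.22-fold higher, which is not a lower bound. The fourth was the silent subunit gene Kcns2, with 0.102 and 0.245 FPKM (8 and 26 fragments, interval 0.08 to 2.62). The list of 6 peripheral neuron markers summed to 0.707 and 0.871 FPKM, with none of them at 1 FPKM, 2 at 0 in Rcor2fl/fl and 1 at 0 in Rcor2cko.

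The remaining genes under 1 FPKM that are named here rested on few fragments where these were recovered. Kcnh1, an EAG channel, was at 0.0695 and 0.229 FPKM, from 2 transcript rows without recovered fragments. Kcna4, Kcna5, Kcnc4, Kcns1, Kcns3, Scn4a, Kcnh6 and Cacna1f were all at or under 0.307 FPKM in both libraries, and where they had intervals these include no difference. Kcnq1, the member of its family best known from the heart, was at 0.225 and 0.208 FPKM (12 and 15 fragments), and its locus holds the long antisense RNA Kcnq1ot1.

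The related genes outside the 75, 81 in the deposited values, were channel partners and other potassium and cation channels, and 42 of them reached 1 FPKM. Of these 42, 18 were higher in Rcor2cko, beside 42.4% of all genes compared, with a median log2 ratio of -0.06. Called higher were 6 of the 42 and called lower 4, beside 3.79% and 1.76% of all genes compared. Calls above the shares of all genes were thus not particular to the 75. The silent subunit gene Kcng1, which modifies Kv2 channels, was at 5.73 and 13.1 FPKM (229 and 707 fragments, log2 ratio 1.18, interval 0.97 to 1.41). Partners of the Kv4 channels went both ways: Dpp6 was at 3.67 and 6.79 FPKM (0.87), whereas the calcium sensor genes Kcnip1 and Kcnip2 were at 9.13 and 4.39 FPKM (-1.04) and at 1.08 and 0.684 FPKM (-0.59). Among regulators of calcium channels, Rem2, a small GTPase, was at 2.01 and 3.51 FPKM (0.78) and Stac, an adaptor of L-type channels, at 0.686 and 1.37 FPKM (0.91). Kcnt1, a sodium-activated potassium channel, was at 0.637 and 1.32 FPKM (0.95), the glial inward rectifier Kcnj10 at 5.69 and 3.37 FPKM (-0.74) and the leak channel Kcnk1 at 1.16 and 0.653 FPKM (-0.74). Kcne2, at 0.142 and 1.498 FPKM (2.73), is also one of the 7 choroid plexus markers.

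Because a relative of Rcor2 works with REST, a repressor that silences neuronal channel genes at the RE1 element, the letters of this element were looked for near the starts of channel genes. The 2 half-sites TTCAGCACC and GGACAG, with 2 bases between them, were searched on both strands within 5000 nt on each side of the 5'-most start (GENCODE vM1 on mm9). They were found beside 2 of the 52 channel genes searched (3.85%) and 39 of 14430 genes in all (0.270%). The other 23 channel genes had no RefSeq promoter entry and were not searched. Scn2a1, 1 of the 2, was known for this element beforehand, so these shares are no test of an excess. The sites are shown because 1 of them belongs to Kcnh4, the gene with the largest ratio among those compared, and the other to the best-known RE1-bearing channel gene, Scn2a1. The half-sites are in capitals and each sequence is given 5' to 3' on the strand of the site.
Kcnh4: agTTCAGCACCctGGACAGccgc
Scn2a1: ctTTCAGCACCacGGACAGcacc
The Kcnh4 site lies at chr11:100620321-100620343 on the minus strand of mm9, 915 nt downstream of the start and in an intron of the gene. The Scn2a1 site lies at chr2:65458019-65458041 on the plus strand, 893 nt upstream of the 5'-most annotated start and outside any annotated transcript. The deposited locus of Scn2a1, whose level is given above, begins well downstream of that start, at 65508502. Rest was at 3.32 and 3.77 FPKM (interval -0.05 to 0.41) and Rcor1, the relative of Rcor2, at 13.4 and 11.5 FPKM (-0.22, interval -0.38 to -0.07). These matches are of letters only and no binding was measured here.

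Promoter sequences, 250 bases before to 50 bases after a start, were matched in RefSeq (GRCm38.p6) for 52 of the 75 channel genes, with 68 promoters. Their median GC content was 62.3%, compared with 52.7% for all 32851 promoters. The letters TATAAA occurred on either strand in 2 of the 68 (2.94%) and in 13.6% of all promoters. The left half-site TTCAGCACC occurred in 1 (1.47%, beside 0.371% of all) and the right half-site GGACAG in 13 (19.1%, beside 22.2%). The promoters of 6 genes past 1.5-fold with an interval on 1 side of 0 are shown, the highest mean level first. Only 1 of the 6 was lower, so they cannot relate CpG content to the direction of a difference. Scn3a and Kcns2 met the same rule but had no entry, so the set is incomplete. CpG dinucleotides are in capitals.
Cacna2d3: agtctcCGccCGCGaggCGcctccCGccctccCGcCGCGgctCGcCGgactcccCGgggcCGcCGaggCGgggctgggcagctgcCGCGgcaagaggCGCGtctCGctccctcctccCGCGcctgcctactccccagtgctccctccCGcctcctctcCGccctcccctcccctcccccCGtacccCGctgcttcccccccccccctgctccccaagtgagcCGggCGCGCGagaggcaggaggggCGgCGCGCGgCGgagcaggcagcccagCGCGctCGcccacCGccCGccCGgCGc
Kcnh8: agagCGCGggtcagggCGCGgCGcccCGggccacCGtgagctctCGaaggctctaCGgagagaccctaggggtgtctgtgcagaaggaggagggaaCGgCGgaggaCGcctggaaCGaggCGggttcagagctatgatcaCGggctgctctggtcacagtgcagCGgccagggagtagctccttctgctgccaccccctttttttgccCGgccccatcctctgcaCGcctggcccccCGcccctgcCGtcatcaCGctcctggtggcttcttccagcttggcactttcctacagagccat
Cacnb2: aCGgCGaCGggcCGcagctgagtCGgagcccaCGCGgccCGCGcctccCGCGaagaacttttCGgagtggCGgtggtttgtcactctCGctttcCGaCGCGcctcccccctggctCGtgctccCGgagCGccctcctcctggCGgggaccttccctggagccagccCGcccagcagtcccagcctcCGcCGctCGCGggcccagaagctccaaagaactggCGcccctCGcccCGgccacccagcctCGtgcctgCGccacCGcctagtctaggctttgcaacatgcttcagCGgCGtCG
Kcnh4: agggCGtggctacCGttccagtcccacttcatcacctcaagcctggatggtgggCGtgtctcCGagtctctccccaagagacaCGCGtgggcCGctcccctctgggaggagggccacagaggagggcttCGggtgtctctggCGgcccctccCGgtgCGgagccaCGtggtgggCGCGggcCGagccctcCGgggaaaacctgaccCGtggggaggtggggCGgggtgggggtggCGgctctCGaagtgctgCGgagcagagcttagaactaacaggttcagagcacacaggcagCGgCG
Scn9a: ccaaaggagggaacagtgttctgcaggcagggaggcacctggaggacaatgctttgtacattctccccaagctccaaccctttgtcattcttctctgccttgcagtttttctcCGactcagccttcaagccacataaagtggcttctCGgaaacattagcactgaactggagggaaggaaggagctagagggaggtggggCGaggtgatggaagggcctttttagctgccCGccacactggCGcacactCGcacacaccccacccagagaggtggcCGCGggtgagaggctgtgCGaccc
Scn11a: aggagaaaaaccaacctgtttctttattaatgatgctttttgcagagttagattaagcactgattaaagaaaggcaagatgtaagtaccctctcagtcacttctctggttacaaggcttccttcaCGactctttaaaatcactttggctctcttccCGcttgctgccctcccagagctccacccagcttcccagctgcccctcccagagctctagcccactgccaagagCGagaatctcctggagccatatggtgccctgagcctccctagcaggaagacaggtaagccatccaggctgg
Cacna2d3, the only one of these that was lower, has the most CpG dinucleotides of them, 41 (chr14:29721815-29722114, minus strand). Cacng5, also called lower but without an interval and so not printed, has 17 and 5 at its entries. Channel genes that were not called lie on both sides of 41, with 42 for Cacna2d1 and 15 for Cacng7. A link of CpG content to direction was not tested. Cacnb2 has 35 at its 5'-most entry (chr2:14604056-14604355, plus strand) and 4 at another entry that is not printed (chr2:14823842-14824141). Kcnh4 has 23 (chr11:100759729-100760028, minus strand) and Kcnh8 has 21 (chr17:52602459-52602758, plus strand). Scn9a, with the largest log2 ratio of all 75 channel genes (1.57), has 9 (chr2:66634913-66635212, minus strand). Scn11a has 3 (chr9:119825407-119825706, minus strand). Scn10a, the lowest of the genes that met the rule and had an entry, has 11 and is not printed. None of the 6 printed promoters holds TATAAA or either half-site.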

How the data were processed

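Messenger RNA of the E13.5 VZ-SVZ was sequenced with a stranded kit. The submitters' processing notes name TopHat 1.3.3, Cufflinks 1.2.0 and mm9, while the study's methods name a later TopHat release at default settings. The authors deposited FPKM values with 95% intervals, per RefSeq transcript for the Rcor2fl/fl library (27641 rows) and per gene for the Rcor2cko library (21896 rows). E15.5 was not analysed here.

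Transcript rows were summed per gene, and no further scaling was applied. Because 1 library has transcript rows and the other gene rows, a gene with several transcripts was estimated differently in each. Fragments were recovered for 14350 genes with 1 row of at least 1000 nt and status OK. FPKM times the model length, less 194 nt (Rcor2fl/fl) or 201 nt (Rcor2cko), came within 0.1 of a whole number of fragments for 99.3% of 4000 and 99.4% of 3959 values of up to 100 fragments. Exact (Clopper-Pearson) intervals of the fragment ratio were computed, and the steps were tested on simulated data. As there are no replicates and no deposited counts, no count model was run. Floors are 3 fragments.

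Some channel genes are not reported here, although counts, sums and medians include them. The others are given by their values where at least 1 FPKM in a library, and otherwise by name where past 1.5-fold with an interval on 1 side of 0, and the remainder by counts or ranges. Related genes are named where past 1.5-fold, and up to 6 promoters are shown by the same rule, with mean level as the order. The members and lists were chosen with earlier results of these data known. Another 15 processing alternatives were run. Positions are 1-based on mm9, as the deposited loci give them, and a locus can be shared by overlapping genes. Promoters are on GRCm38.p6. The scripts used Python 3.11.15, scipy 1.17.1, pandas 2.3.3, numpy 2.4.6 and matplotlib 3.10.9.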

Additional observations from a re-analysis of the deposited data

How the results depend on the processing

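Of 15 alternatives, those that moved the number of channel genes called by over 1.5 times were the following. The genes called higher, 6 as reported, numbered 1 with a pseudocount of 1 FPKM and 1 with a fold change above 2. They numbered 13 with no filter and 13 with the highest row per gene, 3 when both libraries had to reach 1 FPKM, 2 when either had to reach 5 FPKM, 3 where the 95% FPKM intervals also had to be apart and 10 by the exact interval alone, and from 4 to 7 otherwise. The genes called lower, 2 as reported, numbered 1 with a pseudocount of 1 FPKM, when both libraries had to reach 1 FPKM, with the highest row per gene, with genes of 1 row only and where the FPKM intervals had to be apart. They numbered 0 when either had to reach 5 FPKM and 0 with a fold change above 2, and 5 by the exact interval alone, 3 with no filter and 2 otherwise. The median log2 ratio of 0.07 became 0.25 with the highest row per gene, and was -0.01 over the genes that reached 5 FPKM in either library. The highest-row alternative lowers the control values only, since only these list transcripts, and with it Cacna1c turned to 0.60, Cacna2d2 to 0.87, Cacna1d and Cacnb3 to 0.48, and Cacnb1 turned as well. Of 48 genes followed singly, 26 kept their sign and their side of 1.5-fold in all 8 alternatives run on single genes. At least 1 of these ended the call of 9 genes, gave one to 5 that kept their sign, and turned the sign of 8. Of those that turned, Cacna1c and Cacna2d2 also gained a call with the highest row. Cacna1e, Cacna1i, Cacnb3 and Cacng7 turned under a scaling or normalization to within 0.03 of 0. Kcnh8 (0.54) fell short of 1.5-fold with quantile normalization, and Scn3a (0.56) and Cacna1g (0.54) with a pseudocount of 1 FPKM, while Scn1a (0.59) passed it with upper-quartile scaling. No paired analysis was possible because each genotype has 1 library, and for the same reason no library could be left out. At this depth genes of a few fragments cannot show differences of the size seen for Scn3a.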
